A study of Penicillium oxalicum with 6 samples.

Results

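In mycelium of the filamentous fungus Penicillium oxalicum grown on cellulose, 104 of 9834 genes had well measurable RNA in the strain Ku70, were clearly lower in the strain MuPOX06509 and lay outside 6 ranges of ID numbers. They were chosen by their levels in FPKM, which scales the fragments of a gene to its length and to the size of the library. A member had a mean of at least 5 FPKM in the Ku70 libraries and a Ku70 mean at least 2.5 times its MuPOX06509 mean, and its lowest Ku70 value lay above its highest MuPOX06509 value. POX06509 itself was left out, as were IDs with numbers 1150 to 1200, 1675 to 1715, 5835 to 5885, 9330 to 9370, 9450 to 9490 and from 9580 upwards, and the 100 genes with the highest Ku70 mean among the rest. The fall in MuPOX06509 and the separation of the strains were thus fixed by the choice, and both are given below as values with nothing read from them. The ratio quoted for a gene is its Ku70 mean over its MuPOX06509 mean unless another is named, so that a larger ratio stands for a lower level in MuPOX06509.

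The data were 3 RNA-seq libraries of each strain, told apart by the letters F, S and T. MuPOX06509 is named in the titles as the mutant of POX06509 and is read here as its deletion mutant. Ku70 is named as the mutant of Ku70, a protein of non-homologous end joining whose loss makes targeted gene replacement easier in fungi. All libraries came from mycelium kept for 24 h at 28 °C in shaken liquid medium with 1% Avicel, a microcrystalline cellulose, and the growth protocol, worded alike for all of them, names spores of MuKu70. Whether MuPOX06509 was made in the Ku70 mutant, and whether either strain is a single clone, the labels do not state, so loss of POX06509 and any further difference between the strains cannot be told apart. The labels do not say whether libraries of a strain came from separate cultures, and the errors may therefore hold technical spread alone.

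Fungi that live on plant matter cannot take up cellulose as such. They secrete enzymes that cut it into small sugars, and transcription factors that bind promoters set how strongly the genes for these enzymes, for sugar uptake and for metabolism are read. Losing such a factor can lower genes that it binds as well as genes further downstream, and a table of RNA levels does not separate them. In whole mycelium, fewer cells that express a gene and less RNA per cell cannot be told apart either. The sources used here pair none of the 104 IDs with a product, so the members are described by level, spread, length and neighbouring IDs, and no role is given to them.

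Library totals were 14605326 to 15081626 expected counts for MuPOX06509 and 15022017 to 15219424 for Ku70. POX06509 had 0, 0 and 0.04 FPKM in MuPOX06509 libraries F, S and T, against 49.98, 93.09 and 65.98 FPKM in the Ku70 libraries F, S and T. Its RNA was therefore nearly absent from the libraries labelled as its mutant. In the fit across all 8336 tested genes (edgeR's quasi-likelihood test, adjusted p under 0.05), 7.27% of genes were lower in MuPOX06509 and 5.33% were higher. For 16.3% of the tested genes every MuPOX06509 library lay below every Ku70 library.

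The members' summed level was 2531, 3340 and 2665 FPKM in MuPOX06509 libraries F, S and T, against 9583, 6585 and 12328 FPKM in Ku70 libraries F, S and T. The mean sum was 2845 ± 433.7 FPKM in MuPOX06509 and 9498 ± 2872 FPKM in Ku70 (SD, n = 3 each), so the first was 29.96% of the second. The members took 0.310% ± 0.0592 of all counts in MuPOX06509 and 1.08% ± 0.305 in Ku70 (SD, n = 3 each). By the choice, the sums could not overlap between the strains. Ku70 library S gave the lowest Ku70 sum. Member by member, the mean ran from 1.18 to 445.2 FPKM with a median of 11.2 in MuPOX06509, and from 5.02 to 1593 FPKM with a median of 36.3 in Ku70. Most falls were modest: the ratio had a median of 2.89, with quartiles of 2.66 and 3.46. It reached 3 in 47 members, 4 in 16, 5 in 11 and 8 in 4. The share of genes that were members hardly depended on level. Members made up 1.46% of the genes at 5 to 10 FPKM in Ku70, 1.52% at 10 to 30 FPKM, 1.58% at 30 to 100 FPKM and 1.64% from 100 FPKM upwards, all within the limits on ID and abundance. No gene was removed by the limit on abundance, since the largest ratio among the 100 most abundant genes was 1.95, that of POX07896.

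**Figure D1:**
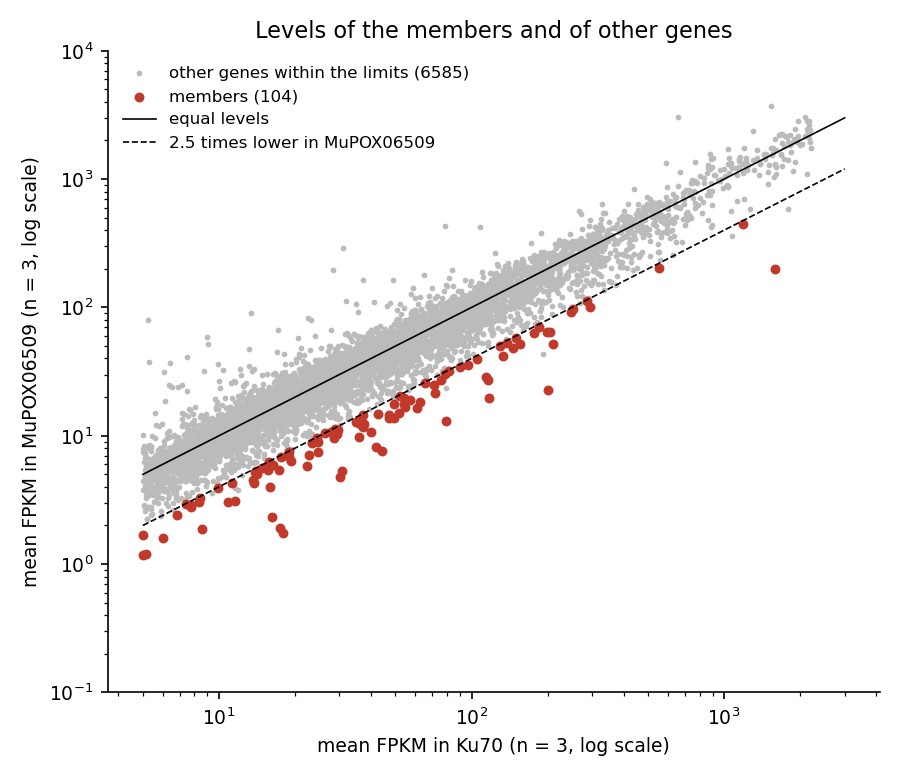
Mean FPKM of each gene in MuPOX06509 (vertical) against its mean FPKM in Ku70 (horizontal), n = 3 libraries each, both axes logarithmic; red points are the 104 members, grey points the 6585 other genes at 5 FPKM or more in Ku70 within the limits on ID and abundance, and the lines mark equal levels and a level 2.5 times lower in MuPOX06509. The members lie below the dashed line by construction, most of them close to it, from 5.02 to 1593 FPKM in Ku70.

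Among the 104 members, 102 passed the filter on low counts and were tested, and edgeR called 100 of these lower, where 7.27% of all tested genes were; the choice used this contrast. The median fitted log2 fold change of the tested members was -1.48, against 0.01 over all tested genes. The largest ratios belonged to POX08890, POX04036, POX05360 and POX08030, whose MuPOX06509 levels were 9.78% to 12.4% of their Ku70 levels. POX08890 had 2.71, 1.72 and 0.85 FPKM in MuPOX06509 libraries F, S and T, against 18.18, 11.18 and 24.63 FPKM in Ku70 libraries F, S and T. POX04036 was close to it in level, with 2.29, 1.82 and 1.63 FPKM in MuPOX06509 and 18.33, 9.55 and 24.41 FPKM in Ku70. Both genes were thus low in all MuPOX06509 libraries and lowest, among the Ku70 libraries, in S. Their counts were small, 10 to 31 for POX08890 and 19 to 26 for POX04036 per MuPOX06509 library.

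POX05360 fell to a similar share at a level more than 10 times higher. It had 19.34, 24.05 and 24.98 FPKM in MuPOX06509, against 223.93, 149.17 and 228.46 FPKM in Ku70, a log2 fold change of -3.10 ± 0.21 (SE). Its lowest Ku70 value was 5.97 times its highest MuPOX06509 value, the widest gap among the 104 members. It was also the longest member, with 5.55 kb implied by its counts and FPKM. POX08030, the most abundant member, had 209.98, 190.74 and 192.77 FPKM in MuPOX06509, against 1861.29, 1008.40 and 1909.46 FPKM in the Ku70 libraries F, S and T. Its level in MuPOX06509 was even, with an SD of 10.6 FPKM, while in Ku70 the SD was 506.9 FPKM and library S stood well below F and T (n = 3 each). Its log2 fold change was -2.96 ± 0.24 (SE), beside the steepest fall of -3.30 ± 0.39 for POX08890.

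The next 6 members by ratio, POX08806, POX01927, POX01926, POX07366, POX03306 and POX02623, had ratios of 6.99 to 5.83. For POX01926, with 11.26, 18.57 and 9.43 FPKM in MuPOX06509 against 92.96, 61.55 and 82.40 FPKM in Ku70, the groups lay far apart. POX01927, the next ID, had 4.84, 6.03 and 3.46 FPKM in MuPOX06509, against 37.26, 19.12 and 34.13 FPKM in Ku70. The 2 genes thus shared the order of the libraries within each strain, with MuPOX06509 S the highest and Ku70 S the lowest. POX03306 departed from the common Ku70 order: it had 7.30, 8.31 and 7.21 FPKM in MuPOX06509, against 35.00, 38.87 and 59.19 FPKM in Ku70 libraries F, S and T. POX07366 was far less even, with 6.87, 41.75 and 10.76 FPKM in MuPOX06509 and 79.43, 46.15 and 227.29 FPKM in Ku70. For this gene the highest MuPOX06509 value and the lowest Ku70 value, both in S libraries, were only 1.11-fold apart, and the log2 fold change of -2.51 had an SE of 0.67. Its edgeR adjusted p was 0.0316. Among other fits, it was not called without Ku70 T (edgeR adjusted p 0.142) or in DESeq2 (adjusted p 0.0529).

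**Figure D2:**
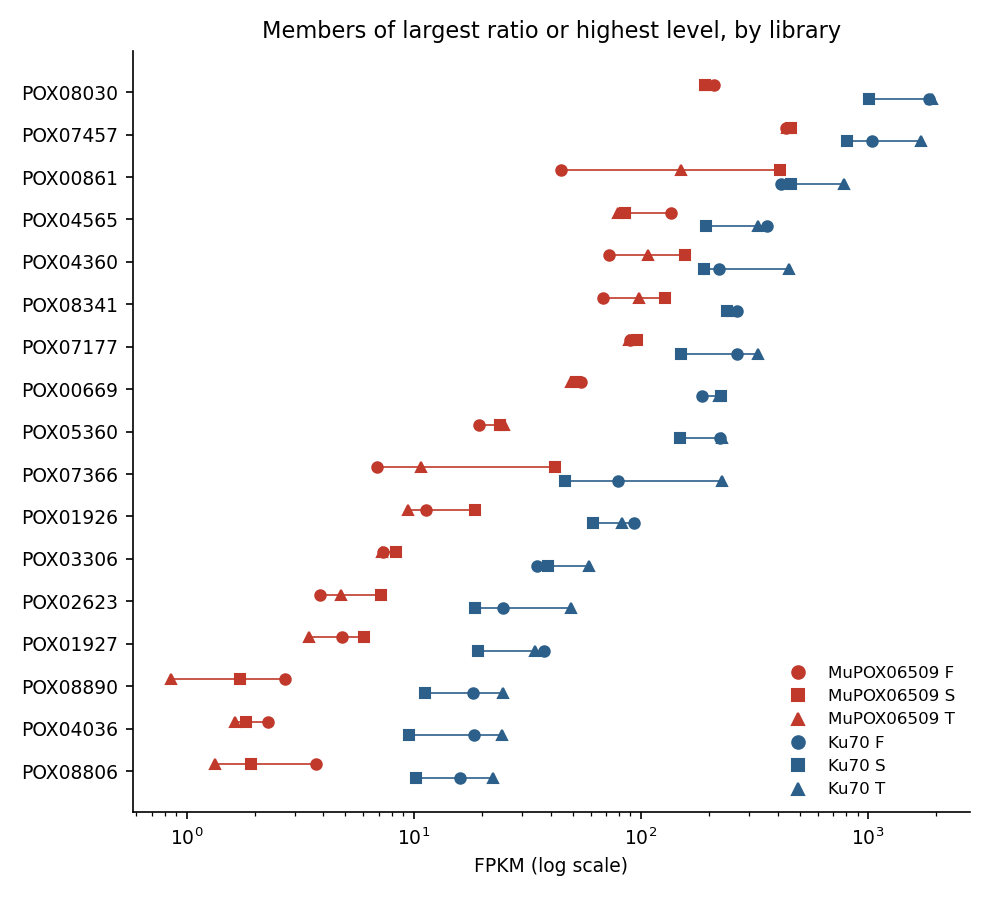
FPKM (horizontal, logarithmic) of the 17 members with the largest ratios or the highest Ku70 means, 1 row a gene; red marks are MuPOX06509 libraries, blue marks Ku70 libraries, circles, squares and triangles stand for F, S and T, and lines join the lowest and highest value of a strain. The groups are well apart for POX05360 and POX08030 and nearly touch for POX07366 and POX00861, and Ku70 S is the lowest Ku70 mark in most rows.

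Below POX08030, the 7 most abundant members were POX07457, POX00861, POX04565, POX04360, POX08341, POX07177 and POX00669, with Ku70 means of 1190 to 210.5 FPKM. POX07457 had 437.89, 459.08 and 438.62 FPKM in MuPOX06509, against 1045.64, 807.23 and 1717.39 FPKM in Ku70 libraries F, S and T. Like POX08030 it was nearly constant in MuPOX06509 and spread in Ku70. POX07177 showed the same, with 89.98, 96.11 and 88.25 FPKM in MuPOX06509 and 265.94, 150.23 and 327.10 FPKM in Ku70. POX00669 had the second largest ratio of these abundant members after POX08030, 4.06, and was tight in both strains. It had 54.72, 51.55 and 49.25 FPKM in MuPOX06509, against 185.49, 225.50 and 220.65 FPKM in Ku70. POX08341 was the reverse of POX07457: its values were 67.90, 127.72 and 98.32 FPKM in MuPOX06509 and 264.39, 239.28 and 249.77 FPKM in Ku70, the smallest Ku70 spread among the 104 members. Without POX08030 and POX07457 the summed level was 2202 ± 429.2 FPKM in MuPOX06509 and 6715 ± 1966 FPKM in Ku70 (SD, n = 3 each).

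Small Ku70 spreads were also found for POX00555, POX02693 and POX02269, whose highest Ku70 value was 1.17, 1.18 and 1.19 times the lowest. POX00555 had 7.99, 8.99 and 7.53 FPKM in MuPOX06509, against 45.78, 39.02 and 40.41 FPKM in Ku70 libraries F, S and T, a log2 fold change of -2.32 ± 0.15 (SE), the smallest error of any tested member. The widest Ku70 spreads were those of POX07366, POX03605, POX03816 and POX04865, from 4.93 to 3.09 times. POX03605 had 18.76, 37.95 and 29.08 FPKM in MuPOX06509, against 105.78, 52.23 and 183.85 FPKM in Ku70. Across the members the highest value was a median of 1.40 times the lowest in MuPOX06509 and 1.95 times in Ku70, where the 6585 other genes within the same limits had medians of 1.27 and 1.32. The wider spread of the members was thus mainly between the Ku70 libraries. A high Ku70 value helps a gene meet the limit on the ratio, and a high MuPOX06509 value hinders it. The choice may therefore have added to this difference.

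A few members rested on little evidence. POX09417 and POX03816 did not pass the filter on low counts and had no test. POX09417 had 1, 1 and 1 counts in MuPOX06509 libraries F, S and T, against 3, 5 and 5 in Ku70, and its ratio of summed counts, scaled for library size, was 4.25 with an exact 95% interval of 1.17 to 23.3. POX03816 had 8, 7 and 3 counts in MuPOX06509 and 16, 9 and 30 in Ku70, a scaled ratio of 2.999 with an interval of 1.73 to 5.43. These intervals cover counting error only. POX00861 and POX04866 were tested and not called, with edgeR adjusted p of 0.135 and 0.0658. POX00861 had 44.47, 410.95 and 150.16 FPKM in MuPOX06509, against 414.59, 459.83 and 784.73 FPKM in the Ku70 libraries F, S and T. Its MuPOX06509 libraries differed 9.24-fold, the widest spread in that strain among the members, and S came within 1.01-fold of the lowest Ku70 value. Fractional counts, which mark reads divided between similar genes, were found in 2 members, POX04866 among them.

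The thresholds passed through a continuous range of genes. Just inside the limit on the ratio were POX02938, POX03233 and POX06604 with ratios of 2.519, 2.522 and 2.530, and just outside it POX08592, POX04800 and POX05611 with 2.4997, 2.495 and 2.492. On the limit of level, POX03816, POX08903 and POX09417 had Ku70 means of 5.02, 5.03 and 5.12 FPKM, while POX09227, POX09101 and POX03815 were left out at 4.85, 4.74 and 4.72 FPKM. A further 8 genes met the limits on ratio and level but had overlapping groups. POX00862, whose ID follows that of POX00861, was one of them. It had 59.04, 791.53 and 226.78 FPKM in MuPOX06509 and 788.71, 841.03 and 1598.86 FPKM in Ku70 libraries F, S and T, the same order of libraries as in POX00861.

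The choice favoured no single Ku70 library, but it used the levels of all 3, and these differed across the members. Ku70 library S was the lowest of the 3 for 92 of 104 members (88.5%), F for 9 and T for 3. Library T was the highest for 78 members, F for 24 and S for 2, and the order S, F, T from low to high alone held for 71. Among the 6585 other genes S was lowest for 49.9%, F for 32.0% and T for 18.1%. On counts scaled by TMM, a normalization to the bulk of genes, S was lowest for 87 of the 104 members and for 40.2% of the others. A member's level in Ku70 S was a median of 0.58 times the mean of Ku70 F and T, where the other genes gave 0.92. The order was read from the Ku70 values that also chose the members. Those values spread more widely in the members than in the other genes, which were not matched for spread. The choice may therefore have added to the share of S. No test was made of this difference, and S is a single library. POX06509 itself had its highest Ku70 value in S.

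The distance of Ku70 S from the other libraries can be put on a scale on which 0 is the mean of Ku70 F and T and 1 the mean of MuPOX06509. The members had a median of 0.56 on it, 64 lay at 0.5 or above and 14 at 0.75 or above. POX07145, POX02972, POX04865 and POX00244 lay nearest to MuPOX06509, at 0.90, 0.90, 0.90 and 0.88. POX07145, for example, had 24.20, 29.21 and 23.98 FPKM in MuPOX06509 and 70.32, 31.58 and 94.26 FPKM in Ku70 libraries F, S and T, so that Ku70 S was next to the MuPOX06509 values. Only POX09417, POX00669 and POX05155 fell below 0, with Ku70 S above the mean of F and T, followed by POX00352 at 0.088. POX05155 had 5.64, 4.84 and 4.70 FPKM in MuPOX06509, against 18.16, 14.49 and 9.74 FPKM in Ku70, and its lowest Ku70 library was T. The depth of S, 15022017 counts, was within the range of the other libraries.

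**Figure D3:**
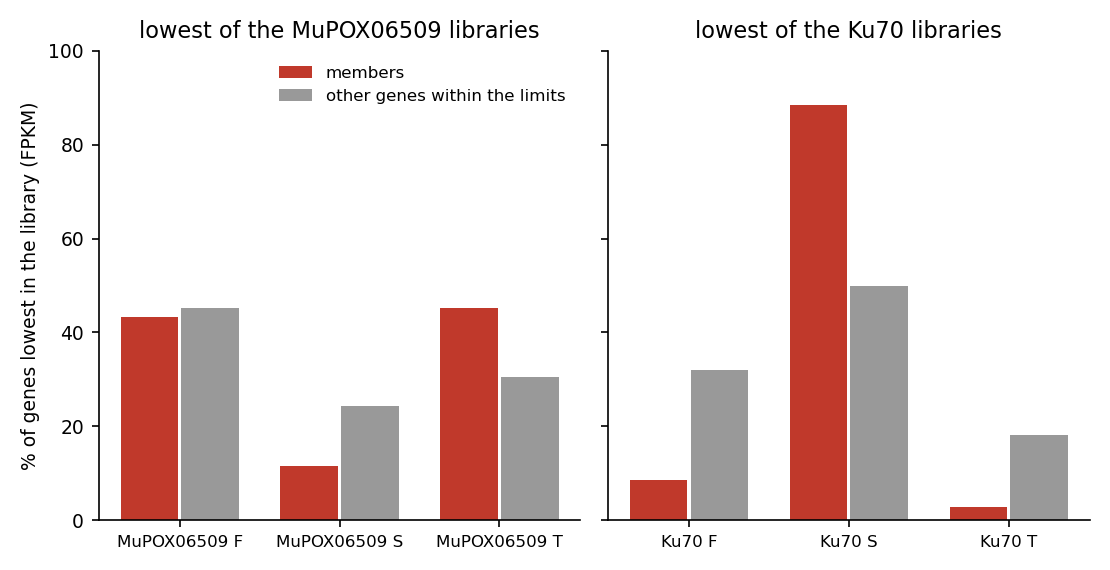
Share of genes (vertical, percent) for which each library was the lowest of its strain in FPKM, MuPOX06509 libraries in the left panel and Ku70 libraries in the right; red bars are the 104 members and grey bars the 6585 other genes within the same limits. MuPOX06509 S was lowest of its strain for 11.5% of the members and 24.4% of the others, and Ku70 S for 88.5% of the members and 49.9% of the others.

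Within MuPOX06509 the members also had a common tendency, which ran the other way for the letter S. MuPOX06509 S was the highest of the 3 for 59 members (56.7%) and the lowest for 12, where it was highest for 25.5% of the other genes. In 26 members it was at least 1.5 times the mean of MuPOX06509 F and T, with POX07366 at 4.74 times and POX00861 at 4.22 times at the top. Of these 26 members, 14 also had at least 1.5 times more RNA in Ku70 T than in Ku70 F, against 14 of the other 78. The same counts were not made over the other genes, so nothing is read from them. Across the 104 members, log2 of S over F in MuPOX06509 and log2 of T over F in Ku70 correlated at r = 0.36 (Spearman 0.32); across the 6585 other genes the values were 0.30 and 0.23. Each value compares the same libraries for all genes, so these correlations describe the 6 libraries. Whether a shared letter pairs libraries of the strains was not tested.

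Each library in turn was kept out of the choice and then read. Its own level was not used by the choice, but the mean of the opposite strain, against which it was set, was used, and that favours a ratio above 1. On the other 5 libraries the rule chose 114, 144 and 102 genes without MuPOX06509 F, S and T, and 94, 197 and 61 genes without Ku70 F, S and T. The number of members thus rested on Ku70 S and T, with 197 genes when S was left out and 61 when T was, against 104. In MuPOX06509 libraries F, S and T, when left out, the Ku70 mean was a median of 2.84, 2.38 and 3.01 times the level of the genes chosen without them. In Ku70 libraries F, S and T, when left out, the level was 2.89, 1.76 and 4.02 times the MuPOX06509 mean. Over all genes within the limits the same ratios were 1.04, 1.03 and 1.03 for MuPOX06509 and 1.02, 0.962 and 1.05 for Ku70. In each of the 6 cases the library left out was separate from all libraries of the other strain for 89.8% to 99.0% of the chosen genes, the lowest share being that of Ku70 S. A ratio of at least 2.5 was kept by 61.4%, 41.0% and 78.4% of the genes in MuPOX06509 F, S and T, and by 74.5%, 13.2% and 85.2% in Ku70 F, S and T. The choice had used the opposite strain, which favours high values of both shares. Neither share was computed over all genes within the limits, so nothing is read from them. At most 3 genes of a choice, 3 of the 197 in Ku70 S, lay on the other side of the opposite mean. The choice had used that mean too, and the count was not made over all genes within the limits, so nothing is read from it. With 1 library of each strain left out together, 9 pairs in all, neither level had been used, and the 4 remaining libraries chose 52 to 235 genes. The median ratio between the 2 libraries left out, Ku70 over MuPOX06509, was 1.47 to 1.85 in the 3 pairs with Ku70 S and 2.24 to 4.35 in the other 6, where all genes within the limits gave 0.971 to 1.07 over the 9 pairs. The pairs share libraries, so they are no replicates of each other.

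**Figure D4:**
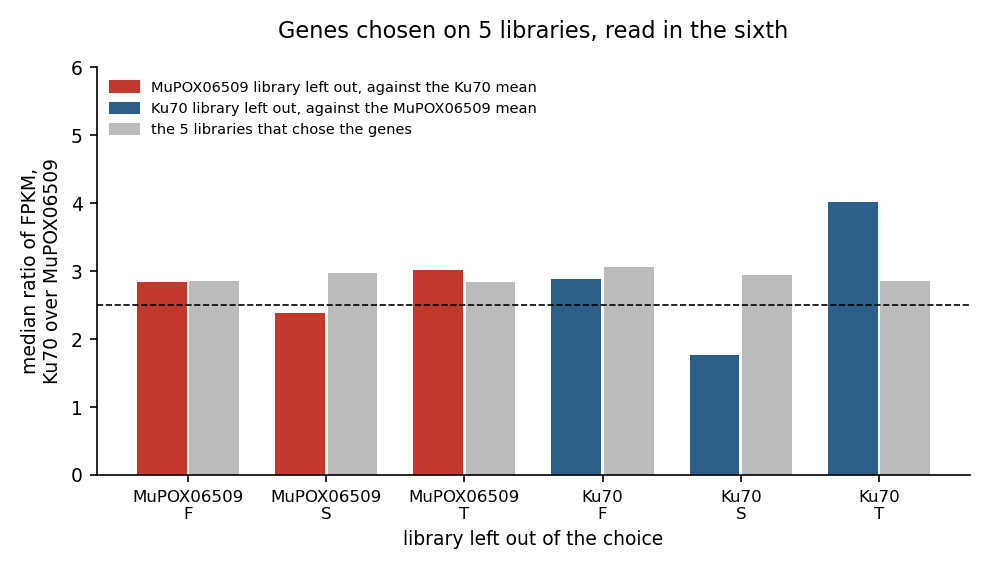
Median ratio of FPKM, Ku70 over MuPOX06509 (vertical), for genes chosen by the rule on 5 libraries; coloured bars give the ratio in the library left out (red for MuPOX06509, blue for Ku70) and grey bars the ratio in the 5 libraries that chose the genes, with a dashed line at 2.5. The ratio in the library left out was 1.76 for Ku70 S and 2.38 for MuPOX06509 S, and between 2.84 and 4.02 for the other 4.

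The members were spread over the ID numbers, from 50 to 9417, with a median step of 51 between one member and the next and a largest step of 451. For 73 members no other member lay within 10 IDs. In steps of 1000 ID numbers the share of members among genes within the limits ran from 0.538% (numbers 6000 to 6999) to 2.38% (8000 to 8999). The files give no positions for the IDs. Consecutive IDs were held by 11 members in 4 groups: POX01926 with POX01927, POX03233 with POX03234, POX05359 with POX05360, and the 5 genes POX04865 to POX04869.

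The 5 consecutive members had similar ratios, from 2.55 for POX04865 to 3.03 for POX04869. Their calls were less even. POX04866 was not called, with an edgeR adjusted p of 0.0658. Without Ku70 T, POX04865 and POX04867 were not called either, with edgeR adjusted p of 0.0852 and 0.116. The same held without MuPOX06509 T, with edgeR adjusted p of 0.0542 and 0.0746. POX04865 was also not called without Ku70 F (edgeR adjusted p 0.0631) and in the limma fits (adjusted p 0.0532 to 0.0583). POX04867 was also not called without MuPOX06509 F (edgeR adjusted p 0.0631). POX04868 and POX04869 were called in every fit. POX04867 was the most abundant, with 21.47, 55.44 and 29.97 FPKM in MuPOX06509, against 66.57, 74.86 and 148.75 FPKM in Ku70 libraries F, S and T. POX04866 had 4.60, 20.79 and 12.84 FPKM in MuPOX06509 and 26.75, 23.05 and 54.75 FPKM in Ku70, so its highest MuPOX06509 value came close to the lowest Ku70 value. POX04868 had 7.73, 13.32 and 9.95 FPKM in MuPOX06509, against 23.39, 21.82 and 42.47 FPKM in Ku70. In all 5 genes MuPOX06509 S was the highest MuPOX06509 library and Ku70 T the highest Ku70 library. POX04865 alone had Ku70 S far below F, with 20.34, 23.34 and 17.54 FPKM in MuPOX06509 and 53.27, 25.14 and 77.80 FPKM in Ku70. The IDs on either side did not belong to the set: POX04864 was listed at 0.22, 0 and 0 FPKM in MuPOX06509 and at 0 in all Ku70 libraries, and POX04870 had 18.71, 21.48 and 23.36 FPKM in MuPOX06509 against 11.60, 17.80 and 14.14 FPKM in Ku70.

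**Figure D5:**
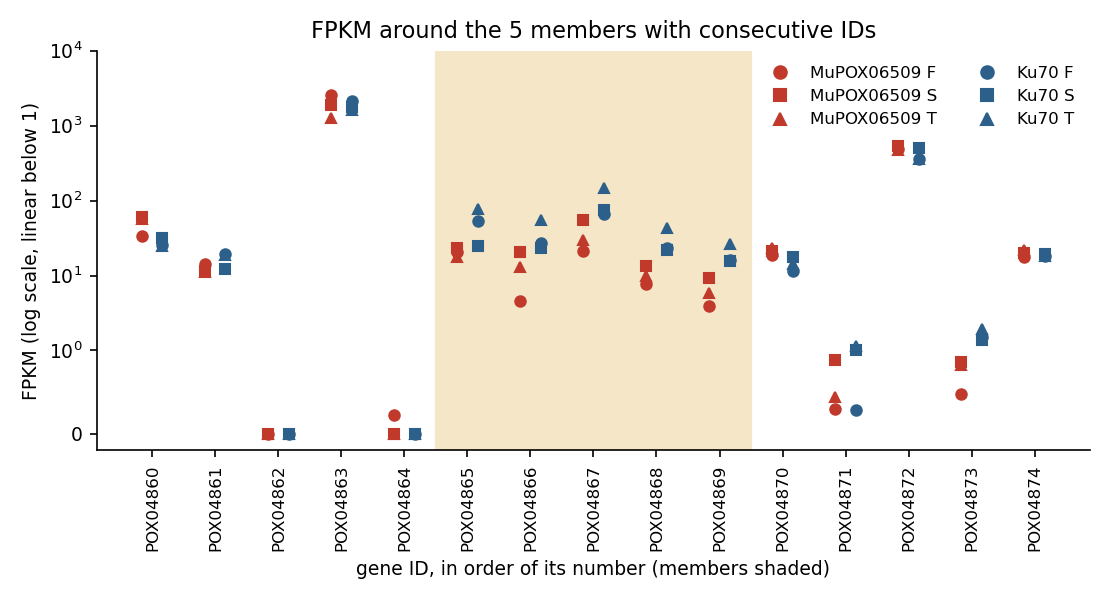
FPKM (vertical, logarithmic above 1 and linear below) of the genes POX04860 to POX04874 in order of ID number, with the members POX04865 to POX04869 shaded; red marks left of each tick are MuPOX06509 libraries, blue marks right of it Ku70 libraries, and circles, squares and triangles stand for F, S and T. The shaded genes sit lower in MuPOX06509, with ratios of 2.55 to 3.03, while POX04870 next to them does not.

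POX05359, beside the steeply lowered POX05360, had 5.56, 7.01 and 3.76 FPKM in MuPOX06509 against 19.64, 10.85 and 21.19 FPKM in Ku70 libraries F, S and T, a ratio of 3.16. POX03233 and POX03234 had ratios of 2.52 and 2.87. POX03234 had 15.51, 13.98 and 15.10 FPKM in MuPOX06509 and 45.78, 31.07 and 51.27 FPKM in Ku70. POX03233 had 11.01, 11.20 and 9.15 FPKM in MuPOX06509 and 30.63, 24.73 and 23.74 FPKM in Ku70. Its lowest Ku70 library was T, whereas that of POX03234 was S.

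Some genes next to a member by ID were lower in MuPOX06509 as well. Of 169 tested non-members adjacent to a member, without POX06509, 24 (14.2%) were lower and 3 (1.78%) higher in edgeR's quasi-likelihood test, where 6.13% and 5.39% of all 8233 tested non-members were. Without Ku70 S 26.6% of these neighbours were lower (45 genes) and 12.3% of the tested non-members, without Ku70 F 8.88% (15 genes) and 2.65%, and without Ku70 T 8.28% (14 genes) and 2.29%. With the letter as a replicate block 26.0% (44 genes) were lower and 11.8% of the non-members. Their median log2 fold change was -0.19, against 0.02 over the tested non-members. No test of this difference was made, and reads shared between overlapping neighbours were not examined, since the counting is not stated to use strand. POX03815, chosen after its values were seen, lay beside POX03816 and had 0.52, 0.13 and 0.51 FPKM in MuPOX06509 against 3.77, 5.35 and 5.03 FPKM in Ku70, a ratio of 12.2 just under the limit of level. POX07367, named in the same way, lay beside POX07366 and had 15.36, 22.60 and 15.43 FPKM in MuPOX06509 against 45.45, 31.02 and 50.41 FPKM in Ku70. The member POX06508 has the ID just before that of POX06509. It had 3.67, 3.12 and 2.41 FPKM in MuPOX06509 against 11.53, 9.47 and 11.55 FPKM in Ku70, a ratio of 3.54. For it, loss of POX06509 and a local effect of the change made at POX06509 cannot be told apart.

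Gene length was the only other property that the files held. The length implied by counts and FPKM was available for 101 members and had a median of 1.04 kb, with quartiles of 0.780 and 1.52 kb. The 6511 other genes with such a length had a median of 1.31 kb and quartiles of 0.814 and 1.97 kb. Members shorter than 1 kb numbered 48 (47.5%), against 34.5% of the others. Among these 101 members the shortest were POX05966 and POX02191, at 0.278 kb each. POX09417, POX03816 and POX02976 had fewer than 50 counts in every library and were given no length, so they are not ranked. POX05966 had 60.06, 54.95 and 43.66 FPKM in MuPOX06509 and 178.75, 73.18 and 163.75 FPKM in Ku70 libraries F, S and T. No test of the difference in length was made.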

How the data were processed

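Per the file headers, the values deposited for each library and each of 9834 gene IDs were 1 expected count and 1 FPKM. The tools listed in the submitters' processing notes are BWA 0.7.10-r789, Bowtie2 2.1.0, RSEM 1.2.12 and DESeq2, without their roles. The genome build, annotation and any strand setting were not given in the sources used here. An expected count divides reads that match several genes between them; 457 genes had a fractional one. FPKM is a share of its own library, so other genes can shift it. The members were found by the stated limits on FPKM. The members and all lists were chosen with earlier results of these data known.

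Rounded counts entered edgeR 4.0.16 under R 4.3.3 (TMM, filterByExpr with a minimum count of 10, quasi-likelihood F test, group as the only term, two-sided Benjamini-Hochberg adjusted p under 0.05 over 8336 genes). A standard error is the log2 fold change divided by the root of F. The scripts were tested on simulated data. Alternatives were DESeq2 1.42.0, limma 3.58.1 on log2(FPKM + pseudocount), other filters and scalings, the letter as a block and leaving out each library. Replicates differed beyond sampling noise, with a chi-square per degree of freedom of 14.9 to 79.7. At 3 counts, the limit that a count of 0 allows was 0.197 to 0.205 CPM. Implied length is the count per FPKM and library total, for libraries with at least 50 counts, as a median.

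Named genes were POX06509, the 10 members of largest ratio, the 8 of highest level, those nearest the limits, those with consecutive IDs, the 4 of smallest and largest Ku70 spread, the 4 with Ku70 S nearest to and farthest from MuPOX06509, and those not tested or at 3 counts or fewer in every MuPOX06509 library. Members tested and not called, and other genes named, were chosen after their values were seen. None of the IDs equals an entry of the RefSeq table for assembly ASM172317v3, so names, coordinates and sequences were not used here.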

Additional observations from a re-analysis of the deposited data

How the results depend on the processing

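Over 13 other fits, all 102 tested members stayed lower in MuPOX06509, with log2 fold changes of -3.76 to -0.64, and 80 kept their side of the threshold in each. The members were chosen on this contrast in the same libraries, so a change of sign was hardly possible and nothing is read from its absence. The fits called 84 to 102 members lower, with medians of -1.67 to -1.22. Of the tested non-members they called from 2.29% (without Ku70 T) to 12.3% (without Ku70 S) lower. Leaving out 1 library moved other counts: 275 to 1126 genes lower and 290 to 1049 higher, and 61 to 197 genes meeting the rule. The 197 were chosen without Ku70 S, which was lowest for 183 of them. That choice asked for high levels in Ku70 F and T alone, which favours S as the lowest, so nothing is read from this count. A ratio of at least 2 gave 249 genes and of at least 3 gave 47; TMM-scaled CPM per kb gave 90, of which 89 were members. Same-letter deviations correlated at 0.39, 0.063 and 0.054 for F, S and T, and deviations of unlike letters at -0.39 to 0.26. Whether the letter pairs the libraries was not tested. With it as a replicate block edgeR called 1074 genes lower and 898 higher, against 606 and 444 without the block, and the cause was not tested. The summed level in MuPOX06509 was 26.0% to 35.2% of that in Ku70 without 1 library. Depth limits POX09417 and POX03816 most. The rule without 1 library or a pair, the shares for Ku70 S and the counts of neighbours were added after seeing the data.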

Other observations

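A strongly raised gene lay between members by ID, one of 3 raised genes among the 169 tested non-members adjacent to a member (1.78%, against 5.39% of all tested non-members). Between the members POX04033 and POX04036, POX04034 had 230.17, 385.78 and 253.30 FPKM in MuPOX06509 libraries F, S and T, against 27.92, 32.62 and 32.48 FPKM in Ku70, a level 9.34 times higher in MuPOX06509 with an edgeR adjusted p of 9.06e-06. POX04033 had 12.37, 13.50 and 14.99 FPKM in MuPOX06509 against 36.01, 21.02 and 52.47 FPKM in Ku70. POX04035, next to both POX04034 and POX04036, had 261.39, 344.85 and 357.18 FPKM in MuPOX06509 against 598.01, 581.64 and 754.54 FPKM in Ku70. The 4 IDs thus held 3 lowered genes and 1 raised gene. They were chosen after their values were seen.

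With the strains exchanged, the same limits chose 88 genes that were higher in MuPOX06509, against the 104 that were lower. Of the 8 genes kept out only by overlapping groups, POX03666 had the largest ratio, 4.39, with 2.34, 116.43 and 12.36 FPKM in MuPOX06509 libraries F, S and T and 83.78, 86.92 and 404.94 FPKM in Ku70. Its order of libraries was that of POX00861 and POX00862: MuPOX06509 S was the highest of its strain and Ku70 T of its own.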
